A study of Marchantia polymorpha with 6 samples.

Results

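The 100 gene models described here were the steadiest across thalli of the mutant Mpbes1 and of the wild type Tak-1 in the liverwort Marchantia polymorpha, and they are candidates for reference genes in this mutant. They were chosen from 19287 gene models by the spread of their own values. Counts were scaled to CPM, counts per 1000000 counts of a library. The 200 models with the highest mean CPM in Tak-1 were dropped, and 4328 of the rest had a mean of at least 50 CPM over all 6 libraries. These 4328 are called eligible below. The members are the 100 eligible genes with the lowest CV, the SD over the 6 libraries divided by the mean. The choice used every library of both genotypes, so a low CV and a small difference between genotypes are what made a gene a member and are given as a description. None of the members fell short of the filter for the test between genotypes.

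A reference gene is a transcript against which others are measured, most often in quantitative PCR after reverse transcription. Its use rests on a level that stays the same between the samples compared, so a gene that serves in one mutant or tissue may fail in another. Housekeeping genes such as those for actin, tubulin and translation factors are the usual candidates in plants. BES1, the gene mutated here, encodes a transcription factor of the BES1/BZR1 family, which is known in flowering plants as the set of regulators that brassinosteroid signalling activates.

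Messenger RNA was sequenced from 3 Mpbes1 thalli and 3 Tak-1 thalli. Mpbes1 plants carry a mutation in the BES1 gene made with CRISPR/Cas9. Tak-1 is a male laboratory accession, and its thallus, the flat body of the plant, is haploid. All plants were 30 days old, untreated, grown under long days, and sampled with their apical notches, per the labels. The 3 samples of a genotype came from 3 plants, per the design text, but the labels do not say whether the Mpbes1 plants go back to 1 edited line. The deposited identifiers are not paired with gene names, since 0 of the 19287 occur in the available reference table of another assembly. Genes are therefore given by identifier and position, no role can be given to any of them, and neither the common reference genes, the mutated gene nor thallus markers could be looked up. Libraries held 11597664 to 17741253 counts, and a member had between 585 and 8280 counts in a library.

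The CVs of the members ran from 0.835% to 3.15%, with a median of 2.65%, against a median of 9.49% in the 4228 other eligible genes. The last member, Mapoly0052s0078.v3.1, had a CV of 3.145%, and the first gene outside, Mapoly0100s0023.v3.1, had 3.155%. The next values were 3.139% for the member before and 3.161% for the second gene outside, so no gap separates the members from the genes that follow. Within a member the highest library was 1.02 to 1.10 times the lowest.

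A CV this low lies near what the counting of reads gives by itself. For a gene of constant level, random sampling of reads (Poisson counting) gives a CV that depends on the number of counts. Its median over the members was 2.71%. The observed CV was below the counting CV in 59 of the 100 members and in 15 of the 4228 other eligible genes (0.355%). This count follows in part from the choice, since the CV limit of the members lies under the counting CV at the lowest levels and above it at the highest, and nothing is read from it. Between 50 and 100 CPM, 46 of 48 members had a CV below that of counting. Between 100 and 200 CPM this held for 13 of 38 members, and above 200 CPM for 0 of 14. Members at 50 to 100 CPM had a median CV of 2.66% where counting alone gives 3.26%. Members above 200 CPM had a median CV of 2.42% where counting gives 1.66%.

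**Figure D1:**
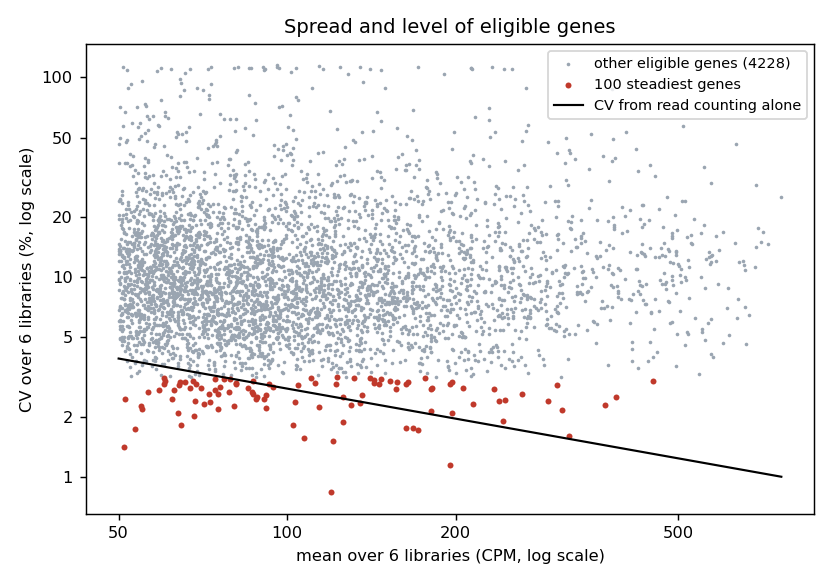
CV over the 6 libraries (%, log axis) against mean level (CPM, log axis) for the 100 members (red) and the 4228 other eligible genes (grey), each point a gene. The black line is the CV that read counting alone gives, and 59 members lie below it, most of them at the left.

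The lowest CV in CPM was that of Mapoly0102s0021.v3.1, on the plus strand of scaffold_102 from 286930 to 292889, with 11 exon blocks (exons of all isoforms, merged where they overlap). It had 119.9, 120.3 and 119.3 CPM in the Mpbes1 libraries, against 118.7, 118.8 and 121.3 CPM in the Tak-1 libraries. The Mpbes1 values lie inside the range of the Tak-1 values, and the CV was 0.835%, where counting gives 2.53%. With TMM scaling its CV was 2.49%, and other members had lower values there. Mapoly0125s0039.v3.1, on the minus strand of scaffold_125 from 468395 to 473342, had 196.1, 195.1 and 197.2 CPM in Mpbes1 and 199.1, 192.6 and 194.5 CPM in Tak-1. Its groups overlap, with the highest and the lowest value both in Tak-1, and its CV was 1.14% where counting gives 1.98%.

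The next gene, Mapoly0006s0106.v3.1, was also the member of lowest mean CPM. It lies on the minus strand of scaffold_6 from 1107519 to 1110519 and had 51.99, 51.1 and 51.0 CPM in Mpbes1 and 52.1, 50.8 and 50.2 CPM in Tak-1. Its CV of 1.41% is well under the 3.86% that counting gives at this level. Mapoly0003s0031.v3.1, on the plus strand of scaffold_3 from 302837 to 312493, had 122.4, 119.2 and 121.1 CPM in Mpbes1 and 118.2, 122.9 and 121.3 CPM in Tak-1, with a CV of 1.51%. For both genes the values of the genotypes overlap.

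Mapoly0005s0178.v3.1 lies on the minus strand of scaffold_5 from 1927923 to 1932305. It had 106.8, 109.0 and 104.8 CPM in Mpbes1 and 105.7, 107.9 and 108.8 CPM in Tak-1, with a CV of 1.57%. Mapoly0114s0025.v3.1, on the minus strand of scaffold_114 from 346004 to 350561, had 317.7, 309.6 and 321.96 CPM in Mpbes1 and 318.8, 324.3 and 320.6 CPM in Tak-1. Its CV of 1.59% was just above the 1.55% that counting gives, and its mean was 90.9 CPM per kilobase of exon, against 59.4 CPM per kb for the gene before it. The groups overlap in both genes.

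At the upper end of CPM stood Mapoly0074s0068.v3.1, on the plus strand of scaffold_74 from 789822 to 797360. It had 445.9, 451.8 and 466.7 CPM in Mpbes1, against 455.9, 460.7 and 427.6 CPM in Tak-1. The lowest value was that of Tak-1 replicate 3, and the CV of 3.03% was above the 1.30% of counting. Mapoly0015s0196.v3.1, on the plus strand of scaffold_15 from 2030268 to 2035380, had 377.1, 386.6 and 401.7 CPM in Mpbes1 and 376.9, 394.5 and 388.0 CPM in Tak-1, with a CV of 2.503%. The other gene at the lower end, Mapoly0013s0056.v3.1 on the minus strand of scaffold_13 from 531649 to 537176, had 51.9, 51.1 and 49.2 CPM in Mpbes1 and 51.5, 52.96 and 51.1 CPM in Tak-1. In all 3 genes the groups overlap.

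Levels of the members ran from 51.2 to 451 CPM with a median of 104 CPM, against a median of 94.6 CPM in the other eligible genes. Per kilobase of exon, which allows genes to be set side by side, they ran from 8.55 to 157 CPM per kb with a median of 35.96, against 35.4 in the other eligible genes. The ranges of the members thus lay within those of the other eligible genes. All members together took 1.310% ± 0.011 of the counts in Mpbes1 and 1.309% ± 0.008 in Tak-1 (SD, n = 3 each). CPM is a share of the counts, so the choice by CV fixes this likeness, and nothing is read from it.

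The choice removes genes that deviate in a single library, so the values by library are a description. The median deviation of a member from its own mean was -0.176%, -0.728% and 0.755% in the Mpbes1 libraries and 0.230%, 0.830% and -0.7995% in the Tak-1 libraries. In TMM-scaled CPM the medians were -2.11%, -1.46% and -1.06% in Mpbes1 and 1.16%, 1.04% and 2.57% in Tak-1, where replicate 3 lay farthest out. In CPM, single members deviated by -5.36% to 5.12%. Members had their highest value in each of the 3 Mpbes1 libraries 20, 11 and 23 times, and in the Tak-1 libraries 19, 19 and 8 times. The lowest value fell in the Mpbes1 libraries for 10, 23 and 13 members, and in the Tak-1 libraries for 20, 10 and 24. Mpbes1 replicate 2 and Tak-1 replicate 3 were thus low more often than high, and so, at 20 against 19, was Tak-1 replicate 1. Within genotypes the members' median CV was 2.32% in Mpbes1 and 2.31% in Tak-1, whereas for the other eligible genes it was 4.42% in Mpbes1 and 6.91% in Tak-1.

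**Figure D2:**
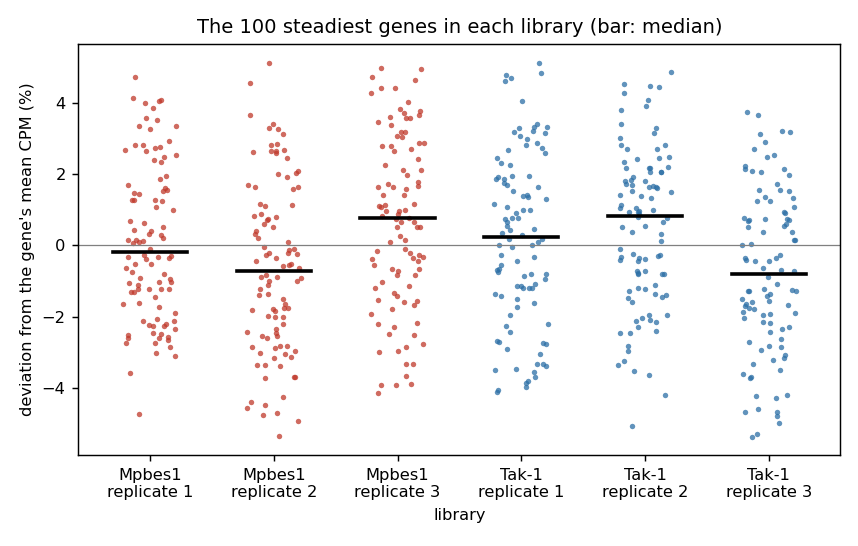
Deviation of each member's CPM from that member's own mean over the 6 libraries (%), by library. Each point is 1 of 100 members, red in Mpbes1 and blue in Tak-1, and the bars are medians, which lie between -0.7995% and 0.830%.

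The comparison of Mpbes1 with Tak-1 used edgeR's quasi-likelihood test over the whole table, with TMM scaling and Benjamini-Hochberg adjustment over 12313 genes tested. A gene is called at an adjusted p under 0.05. Of the 100 members 0 were called, against 40.4% of all genes tested, and 0 members had an unadjusted p under 0.05. DESeq2 and limma-voom likewise called 0. The choice by CV fixes this outcome, so nothing is read from it. The smallest adjusted p of a member was 0.137 in edgeR.

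Fitted log2 fold changes of the members ran from -0.12 to 0.03, with standard errors of 0.057 to 0.069. Their 95% intervals extended at most to -0.25 and 0.16. The intervals of single members thus include differences of up to that size. Among the other eligible genes the smallest called absolute log2 fold change was 0.16. Mapoly0008s0147.v3.1 had the highest log2 fold change. It lies on the minus strand of scaffold_8 from 1597797 to 1607284 and had 169.4, 168.4 and 166.9 CPM in Mpbes1, against 158.6, 162.9 and 158.4 CPM in Tak-1. In CPM all 3 Mpbes1 values were higher. With TMM scaling the fitted value was 0.03 ± 0.058 on the log2 scale (SE, edgeR), with an adjusted p of 0.718. With library totals only, the scale of the CPM values, it was 0.073. This gene overlaps another model on the opposite strand, and whether reads of the pair were separated is not known.

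Mapoly0065s0073.v3.1 had the lowest log2 fold change. It lies on the minus strand of scaffold_65 from 821473 to 830012, and had 139.1, 140.5 and 138.8 CPM in Mpbes1 and 144.97, 149.9 and 144.8 CPM in Tak-1. In CPM all 3 Mpbes1 values were lower. With TMM scaling the fitted value was -0.12 ± 0.058 on the log2 scale (SE, edgeR), with an adjusted p of 0.137, and with library totals only it was -0.072. The last member by CV, Mapoly0052s0078.v3.1 on the minus strand of scaffold_52 from 675952 to 684434, had 118.5, 118.7 and 122.6 CPM in Mpbes1 and 125.6, 128.3 and 123.5 CPM in Tak-1, also without overlap. The first gene outside, Mapoly0100s0023.v3.1 on the minus strand of scaffold_100 from 234659 to 242663, had 85.9, 85.4 and 90.8 CPM in Mpbes1 and 85.97, 88.7 and 91.8 CPM in Tak-1, and its groups overlap.

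**Figure D3:**
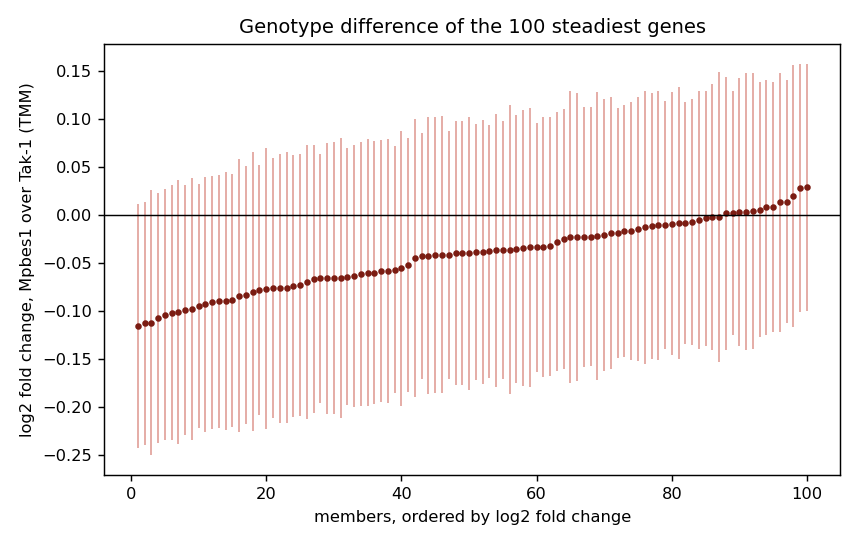
Fitted log2 fold change of Mpbes1 over Tak-1 with TMM scaling for each of the 100 members, ordered by size, with 95% intervals (lines). Points run from -0.12 to 0.03, 87 of them lie below 0, and every interval spans 0.

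Which side of 0 the members lie on depended on the scaling. With TMM, 13 members had a log2 fold change above 0 and 87 below, with a median of -0.04, whereas the median of all genes tested was 0.01. Of the 4228 other eligible genes 1994 were above 0 and 2234 below, with a median of -0.018. With library totals only, the scale on which the members were chosen, 58 were above 0 and 42 below, and the median was 0.0045. The TMM factors were 1.02, 1.01 and 1.02 for the Mpbes1 libraries and 0.991, 0.998 and 0.967 for the Tak-1 libraries, with means of 1.015 in Mpbes1 and 0.985 in Tak-1. In CPM, all 3 Mpbes1 values lay above all 3 Tak-1 values in 8 members, against 30.9% of all genes tested, and below them in 9, against 22.9%. In TMM-scaled CPM the same held for 1 member above, against 26.7% of all genes tested, and for 30 members below, against 26.5%. Among the 4228 other eligible genes it held for 1038 above and 1278 below, so the share of members below is near that of eligible genes. The members are steady relative to the total of the counts because they were chosen for it. On the TMM scale most of them were slightly lower in Mpbes1. The TMM factors, higher in Mpbes1 than in Tak-1, shift the values of every gene that way relative to CPM. The side of 0 follows in large part from the choice and these factors, so nothing is read from it.

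Ratios between members do not depend on the scaling. Over the 4950 pairs of members, the SD of the log2 ratio over the 6 libraries had a median of 0.050 and ran from 0.0081 to 0.087. Averaged over its 99 partners, the SD was lowest for Mapoly0125s0039.v3.1, at 0.039, and the highest of any member was 0.059. The geometric mean of the 2 members of lowest CV had a CV of 0.591% in CPM and 2.15% in TMM-scaled CPM. That of the 5 of lowest CV had 0.331% and 2.005%, and that of all 100 had 0.579% and 1.74%. These SDs and CVs come from the 6 libraries that made the choice, so low values follow in part from it. Geometric means were not looked up in a library left out of the choice. In TMM-scaled CPM the geometric mean of all 100 was lower in Mpbes1 by a log2 difference of -0.04.

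The summed counts of the members can also serve as the scale for the whole table. With them in place of TMM, 2800 genes rose and 2323 fell in Mpbes1, and with TMM 2380 rose and 2597 fell (edgeR, adjusted p under 0.05). Of the 5123 genes called on the scale of the members, 4701 were among the 4977 called with TMM. Since the members were chosen for an even share of the library totals, this scale is close to library totals only, where 2805 genes rose and 2294 fell.

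How far steadiness carries over was examined in libraries that the choice did not use. The choice was repeated 6 times on 5 libraries, and the 100 genes chosen were then looked up in the library left out. Their median absolute deviation from the mean of the other 5 libraries was 3.31%, 3.62% and 4.40% when an Mpbes1 library was left out, and 5.01%, 6.94% and 7.63% when a Tak-1 library was left out. For all eligible genes it was 8.09%, 8.07% and 8.01% in the Mpbes1 libraries and 8.06%, 10.5% and 9.14% in the Tak-1 libraries. In the 5 libraries that chose them the same genes had median CVs of 1.99% to 2.44%. These CVs are another measure than the deviation and cannot be set directly against it. Read counting in the library left out would by itself give the chosen genes a median absolute deviation of 1.61% to 1.92%. By the observed median the chosen genes lay closer to their mean than eligible genes did in each of the 6 libraries. The mean of the other 5 spans both genotypes, so the deviation of eligible genes also holds differences between genotypes. The choice on those 5 libraries disfavours genes with such differences, and how much of the closeness follows from that was not tested.

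Between 29 and 70 of the 100 genes chosen on 5 libraries stayed within 5% in the library left out, and 65 to 95 within 10%. Of all eligible genes 25.5% to 33.8% stayed within 5% and 48.0% to 59.1% within 10%. In Tak-1 replicate 3 the share within 5% was 29 of 100 chosen genes, against 28.8% of eligible genes. The largest single deviation was 38.1%, in Mpbes1 replicate 3. The membership itself changed with each library. The repeated choices shared 70, 73 and 66 genes with the members when Mpbes1 replicates 1, 2 and 3 were left out in turn, and 55, 44 and 39 when Tak-1 replicates 1, 2 and 3 were. Only 25 members were chosen in all 6 repeats, and 16 of those were also among the 100 lowest CVs with TMM and with RLE scaling. The 6 genes of lowest CV described above were chosen in all 6 repeats, and all of them but Mapoly0005s0178.v3.1 also with both other scalings. Each repeat used 5 of the 6 libraries that ranked these genes, so their return follows largely from that ranking and is a description.

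**Figure D4:**
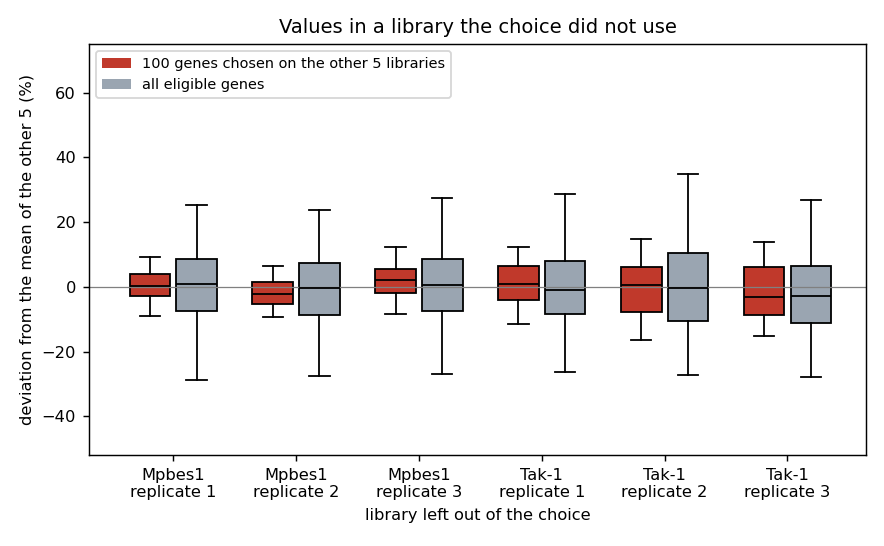
Deviation (%) of genes in a library left out of the choice from their mean over the other 5 libraries, by library left out, for the 100 genes chosen on those 5 (red) and all eligible genes (grey). Boxes are quartiles with the median as a line and whiskers run from the 5th to the 95th percentile; the red boxes are widest for Tak-1 replicates 2 and 3.

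Genes of lowest CV among the plants of 1 genotype had a median CV close to that of all eligible genes in the other genotype. The 100 genes of lowest CV in the 3 Tak-1 libraries alone had a median CV of 0.868% there. In the Mpbes1 libraries, which took no part in that choice, their median CV was 3.98%, against 4.34% in all eligible genes. Between the genotypes 43 of these 100 were called, 15 that rose and 28 that fell, against 41.4% of eligible genes, and 1 of them had a log2 fold change of -2.06 (edgeR). The 100 genes of lowest CV in the 3 Mpbes1 libraries alone had a median CV of 0.506% there and of 6.28% in Tak-1, against 6.81% in all eligible genes. Of these 36 were called, against 41.2% of eligible genes.

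The list chosen on Tak-1 shared 18 genes with the members and the list chosen on Mpbes1 shared 5. Of the 100 genes on each of these lists, 1 was on both. In this data set genes picked by low CV in 3 wild-type plants were called between genotypes at a share near that of eligible genes. The genotype contrast uses the libraries that made each choice, and no test was made of these differences. The lists' median CVs in the libraries that chose them, 0.868% and 0.506%, lie below the 2.84% that counting gives the median eligible gene over all 6 libraries. Few counts that happen to be alike can thus put a gene on such a list, and how far this made the lists was not tested.

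The structure of the gene models took no part in the choice, and genes with few exon blocks made up a smaller share of the members than of the other eligible genes. Members had a median of 8 exon blocks, against 7 in the other eligible genes and 5 in all genes tested. With 1 or 2 exon blocks there were 9 of 100 members, against 18.6% of the other eligible genes and 28.9% of all genes tested. With a single exon block there was 1 member, against 8.23% of the other eligible genes. That member, named here after its values were seen, is Mapoly0108s0027.v3.1, on the plus strand of scaffold_108 from 308275 to 312004. It had 85.97, 86.9 and 92.2 CPM in Mpbes1 and 87.2, 88.0 and 89.4 CPM in Tak-1.

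The median exon length of the members was 3312 bases, against 2799 in the other eligible genes, and their median span on the scaffold was 6090 bases, against 4835. The shortest member had 1115 bases of exon, and 0 members were under 1000 bases, against 3.78% of the other eligible genes. At similar level the contrast was smaller for blocks. Among genes between 72.7 and 163 CPM, the middle range of the members, 6 of 50 members had 1 or 2 exon blocks, against 18.1% of 1941 other eligible genes, and both medians were 7 blocks. Median exon lengths there were 3336 bases in the members and 2906 in the other eligible genes.

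Across all eligible genes, ordered by CV and cut into 10 classes of equal size, structure differed mainly in the classes of higher CV. The 4 lowest classes all had a median of 8 exon blocks, with 11.8% to 15.2% of genes at 1 or 2 blocks. In the class of lowest CV, up to 4.53%, 12.5% of genes had 1 or 2 exon blocks, and in the class of highest CV, above 24.4%, it was 31.5%. The median number of blocks was 8 in the lowest class and 4 in the highest, and the median exon length was 3055 and 2343 bases. Median levels of the classes lay between 91.2 and 100.7 CPM, so level differed little along this order. The count depended on which libraries chose the genes. Chosen without Mpbes1 replicate 1, 17 of 100 genes had 1 or 2 exon blocks, and without Tak-1 replicate 2 it was 14, against the 9 of the members. Genes with a single block numbered 5 in each of these choices and 4 with TMM scaling. Of the 100 genes chosen on Tak-1 alone 23 had 1 or 2 exon blocks, with a median of 6.5, and of those chosen on Mpbes1 alone it was 10, with a median of 8. Genes are not independent replicates, and these values are given without a test.

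**Figure D5:**
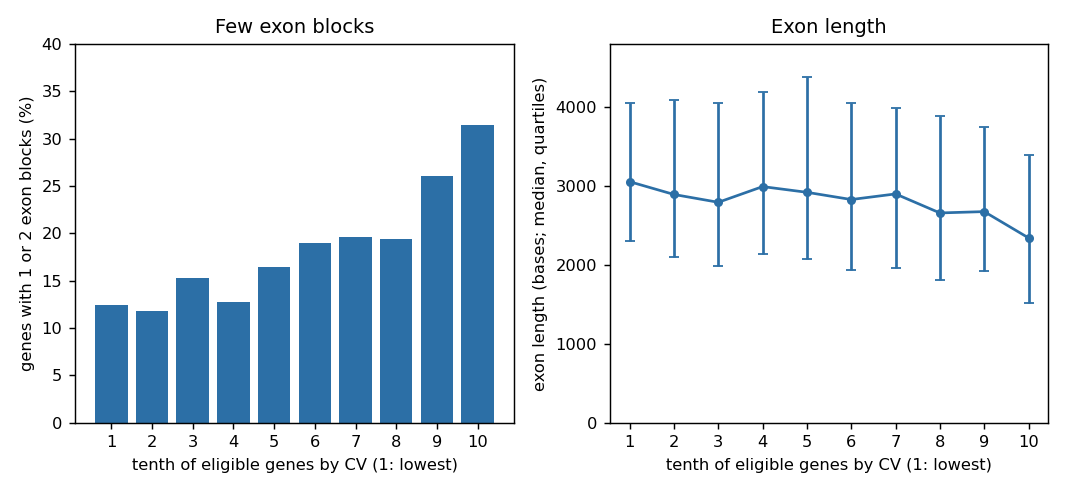
Eligible genes cut into 10 classes of equal size by CV, from the lowest (1) to the highest (10). Left, share of genes with 1 or 2 exon blocks (%), which is 12.5% in class 1 and 31.5% in class 10; right, exon length in bases (median with quartiles), with medians of 3055 and 2343 in these classes.

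The members were spread over the genome. They lay on 70 scaffolds, 53 of which held 1 member each, and no pair of members were neighbours among the gene models of a scaffold. Scaffold_1 held the most, 8 members among 180 eligible genes, followed by scaffold_15 with 5 among 55. None lay on a scaffold of 5 or fewer gene models, against 1.30% of the other eligible genes, and 46 of the 100 were on the plus strand. A start of another gene on the opposite strand within 1000 bases, head to head, was found for 7 members (7.00%) and for 6.79% of the other eligible genes.

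Of the members 2 overlapped a model on the opposite strand, against 4.75% of the other eligible genes, and 2 overlapped one on the same strand. For these, reads of both genes may be mixed. Apart from Mapoly0008s0147.v3.1 the overlap on the opposite strand concerned Mapoly0003s0148.v3.1, which had a CV of 2.45%. A single member lay on the male sex chromosome, MapolyY_A0056.v3.1, on the minus strand of Chr_Y_A from 2885043 to 2904493. It had 106.2, 103.3 and 104.3 CPM in Mpbes1 and 102.9, 104.3 and 98.96 CPM in Tak-1, with a CV of 2.36% that was lower, at 0.934%, with TMM scaling. These genes were likewise named after their values were seen.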

How the data were processed

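The authors deposited raw counts of reads per gene model, whole numbers for 19287 models in 6 samples, with exon coordinates and exon length in the featureCounts layout, per the file headers. The tools listed, per the submitters' processing notes, are edgeR, featureCounts 1.5.1 and STAR 2.5.2b. Genome build, strand setting and handling of multiply aligned reads were not given in the sources used here. If reads of near-identical copies were shared or dropped, counts of members with such copies may be affected. Positions are printed as deposited, with the first base numbered 1.

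CPM is the count over the library total times 1000000. The members and lists were chosen with earlier results of these data known. The counting CV is the square root of the mean Poisson variance over the libraries, divided by the mean. It covers counting error only, since PCR duplicates were not marked by molecular identifiers. The genotype test was edgeR 4.0.16 (R 4.3.3, quasi-likelihood, robust, TMM, filterByExpr) with genotype as its only term, and its standard errors come from the F statistic. DESeq2 1.42.0 and limma 3.58.1 were alternatives. The edgeR script was tested on simulated data first. No libraries were duplicates: chi-square per gene between libraries of a genotype was 3.07 to 10.9.

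Genes named in the text are, by rule, the 6 members of lowest CV, the 2 highest and 2 lowest in level, those of highest and lowest log2 fold change, and ranks 100 and 101. The gene lists planned by name, such as common reference genes and ribosomal proteins, could not be filled. Sequences of the members were not used here.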

Additional observations from a re-analysis of the deposited data

How the results depend on the processing

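How many of the 100 members stayed depended on most of the choices tried. There were 53 left with TMM, 49 with RLE, 64 with counts per kilobase rescaled to a common total, 34 with the CV within genotypes only, 52 with a minimum mean of 100 CPM, 18 on Tak-1 columns only, 5 on Mpbes1 columns only, and 39 to 73 with 1 library left out. With the ratio of highest to lowest value 86 stayed, with the CV in excess of counting 68, with no gene dropped 98 and with a minimum mean of 20 CPM 82. The members' median CV of 2.65% was 2.97% with TMM, 3.05% with RLE and 2.54% to 2.65% with 1 library left out. Their median log2 fold change of -0.04 was 0.0045 with library totals only, 0.0035 with the members as the scale, -0.048 with at least 5 CPM in 3 libraries and -0.051 to -0.028 with 1 library left out. The median of 8 exon blocks was 6.5 for genes chosen on Tak-1 columns only; the cause was not tested. The number of members called was 0 in each of the 14 alternative fits, DESeq2, limma-voom and those without 1 library included, while 3974 to 5246 genes were called in the whole table. The choice by CV fixes the count over the members, so nothing is read from it. All 182 alternative log2 fold changes of the 13 named genes stayed within 1 standard error of the reported one. The deviation in the library left out, a median of 4.70%, was 3.86% with TMM and 4.17% from 100 CPM. Replicate numbers were not taken to pair the samples, since the design text gives independent plants with genotype as the only factor. Same-numbered deviations correlated at 0.21, -0.018 and 0.18, and 4 of 6 libraries matched their own number best. Whether samples of the same number share an effect was not tested. A replicate block gave 5246 calls against 4977, and a median log2 fold change of -0.04 for the members. A CV below that of counting was found in 59 members, among them 13 of the 38 at 100 to 200 CPM. This count follows in part from the choice, and how far depth limits the ranking was not tested.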
